A study of Mus musculus with 4 samples.

Results

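The cytosolic ribosomal protein genes were followed on 4 arrays of NIH-3T3, a line of mouse fibroblasts in wide use. A gene was taken as a member when its mouse symbol was Rpl or Rps with a number and at most an a, x or l, or Rplp0, Rplp1, Rplp2 or Rpsa, and when a probe carried an mRNA accession for it. This gave 80 genes, 49 of the large and 31 of the small ribosomal subunit, out of 36838 gene names on the array. They were covered by 166 probes with values on every array, and 52 of the genes had more than 1 probe. Of 83 symbols that fit the rule in the RefSeq table, 3 had no such probe (Rpl37, Rpl6l and Rps4l). S6 kinase genes and pseudogenes were left out, as were genes of ribosomal proteins or close relatives whose names fall outside the rule, such as Fau, Rps3a1 and Rpl22l1.

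The cells were wild type, grown in serum to confluency, and either left untreated or exposed for 24 h to AR7, CA39 or CA77, each at 20 µM and dissolved in DMSO. The 3 compounds are related small molecules made to activate chaperone-mediated autophagy, the transfer of single proteins across the lysosomal membrane. Each group was 1 array (n = 1), so no test between groups was possible, and a difference from the untreated array carries no replicate error. The control label gives no treatment, so the effect of DMSO and that of a compound cannot be told apart. All 4 arrays were on 1 slide. The untreated array was in slide row 1 and the treated arrays in slide row 2, and CA77 was read in scan 2 while the others were read in scan 1, so position and treatment cannot be told apart.

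Differences are given on the log2 scale as treated minus untreated, after normalization. In place of replicate error, the spread of repeated spots was used: 399 probes were printed 10 times on each array, and their spots gave a tolerance of 0.16, or 1.12-fold, which is the typical error (1 SD) of a difference between single spots on 2 arrays. It covers spot error only, not the spread between cultures. Genes were called when past 1.5-fold, a log2 difference of 0.58. Between 52.2% and 69.7% of probes were detected (well above background) per array, and no gene spot was marked as saturated by the scanner. Of 8 fibroblast markers 7 were detected on all 4 arrays, among them the collagen Col1a2 and vimentin, Vim. All 7 were lower with AR7, down to -1.04 for Col1a1, while with CA39 7 of 8 were higher, among them Fn1 by 1.47 and Col1a1 by 1.06. With CA77 6 of 7 were lower, with Col1a1 at -0.83 and Col3a1 at -0.63. Of 4 neuron and glia markers 2 were detected on all arrays, as were 2 of 3 blood and 3 of 3 endothelial markers. Snap25, Itgam and Kdr among these were at 11.81, 12.37 and 11.91 untreated. Among the endothelial markers Cdh5 was 0.62 higher with AR7 and 0.52 higher with CA77, and 2 were lower with each. The neuronal tubulin Tubb3, detected on 2 arrays, was at 5.72 untreated and 8.50 with CA39, 2.78 higher. With CA39 the rest of the neuron and glia list ran both ways, with Snap25 at 0.32, Gfap at -0.40 and Rbfox3 at -0.05 or lower. Pdgfrb was detected on the CA39 array alone. Of 4 epithelial markers, the cadherin Cdh1 was at background on all arrays, Epcam was detected on the CA39 array alone, and the keratins Krt8 and Krt18 were detected on all arrays and were higher by 2.38 and 0.98 with CA39. The part of these markers in the members' values was not tested.

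Ribosomal proteins are the protein part of the ribosome. The large subunit joins amino acids and the small subunit reads the mRNA, and a ribosome needs 1 copy or a few of each protein, so their genes are used together at high and similar levels in growing cells. Their mRNAs begin with a cytosine followed by a run of pyrimidines, the terminal oligopyrimidine (TOP) tract, through which mTORC1 signalling and the RNA-binding protein Larp1 set how strongly they are translated. Because that control acts on translation, a change in it need not appear in the amount of mRNA, which is what an array measures.

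The pyrimidine run is described for ribosomal protein mRNAs as a family. It could be looked for in RefSeq promoter sequence of GRCm38.p6 for 60 of the 80 members. The letters CTTTC were searched within 25 bases on either side of the annotated start. They were found on the gene's strand in 18 members, or 30.0%, against 6.60% of 27025 genes in the table. On the opposite strand they were found in 4 members, or 6.67%, against 5.88% of all genes. An annotated start at a C followed by 4 pyrimidines was present in 13 members, or 21.7%, against 2.49% of all genes. Annotated starts can lie some bases from the true ones, and a match or its absence describes only these letters in this window. The stretches below run from 15 bases before the annotated start to 15 bases from it, 5′ to 3′ on the gene's strand, with CTTTC in capitals. The first 5 show these letters in genes of both subunits, and Rps27l and Rpl3l, both described below, show stretches without them.
Rpl28, chr7:4792950-4792979, plus strand: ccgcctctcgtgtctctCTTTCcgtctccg
Rpl38, chr11:114668565-114668594, plus strand: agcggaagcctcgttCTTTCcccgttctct
Rplp2, chr7:141447636-141447665, plus strand: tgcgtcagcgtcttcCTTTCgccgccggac
Rps10, chr17:27635230-27635259, minus strand: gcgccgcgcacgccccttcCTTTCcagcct
Rps27, chr3:90213634-90213663, minus strand: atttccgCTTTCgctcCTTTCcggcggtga
Rps27l, chr9:66946071-66946100, plus strand: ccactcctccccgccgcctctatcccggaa
Rpl3l, chr17:24727811-24727840, plus strand: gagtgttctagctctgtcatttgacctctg

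The members sat at the bright end of every array. Of the 80 genes, 78 were detected on all 4 arrays, and by mean signal 42 of these lay in the brightest 1% of the 20594 genes detected on all arrays, 29 more in the brightest 3%, and the last 7 in the brightest 10%. The median member had a normalized log2 signal of 18.28 on the untreated, 18.27 on the AR7, 18.30 on the CA39 and 18.28 on the CA77 array. Members took 29, 27, 29 and 28 of the 100 brightest genes on these arrays in the same order. Their share of the summed signal was 8.75%, 8.54%, 8.77% and 8.78%. Signals of different probes are not levels of different mRNAs, so these ranks describe probes on the array's scale.

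The scanner's scale was not exhausted at that end. Rpl41, a very short large subunit protein, gave the brightest gene probe on all 4 arrays, with raw intensities of 563876 untreated, 557549 after AR7, 559411 after CA39 and 531629 after CA77. These were between 68.2% and 72.3% of the scanner's saturation value. The median member reached 41.6% of that value on the untreated array and 38.0% on the CA77 array, and 0 member spots were marked as saturated. These marks describe the scanner and do not show whether binding to a probe was near its limit, which was not tested. Quantile normalization gives genes of equal rank on 2 arrays the same value, so the difference of Rpl41 was 0 in all 3 comparisons by construction. A further limit is that many ribosomal protein genes have processed pseudogenes of near-identical sequence, so a probe's signal may include other transcripts.

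Against the untreated array the large subunit genes as a group had a median difference of -0.0070 after AR7, 0.04 after CA39 and 0 after CA77. With AR7, 20 of 49 were above and 26 below 0. With CA39, 30 were above and 15 below 0, and with CA77 22 were above and 22 below. Members without a measured value on one of the arrays and members of equal rank count as 0 here. The small subunit behaved alike, with medians of -0.0014, 0.04 and -0.0051 over 31 genes. Of these genes 14, 23 and 14 were above 0 with AR7, CA39 and CA77.

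**Figure D1:**
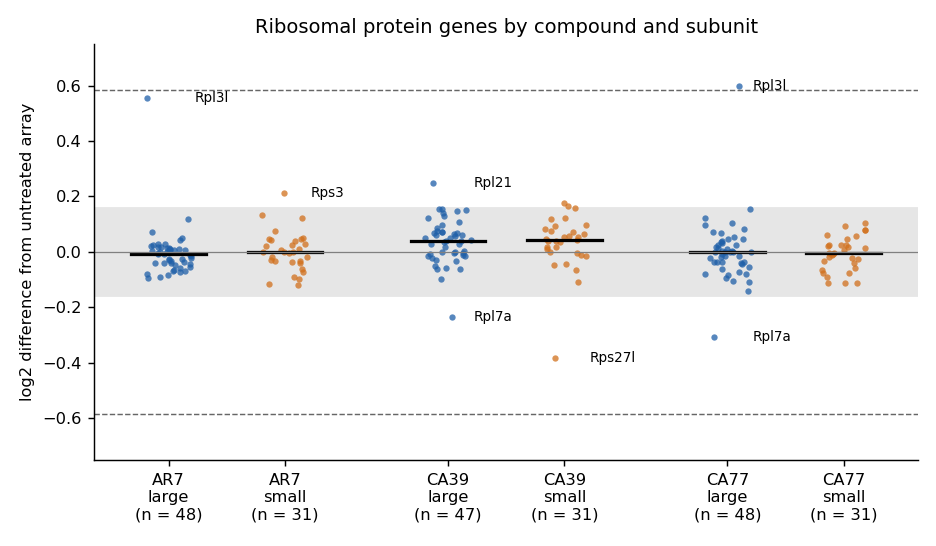
Each point is 1 ribosomal protein gene, placed by its log2 difference from the untreated array (vertical axis) under each compound and for each subunit (horizontal axis). Black bars are medians, the grey band is the spot tolerance of 0.16 and dashed lines mark 1.5-fold. Nearly all points lie in the band, and the labelled genes lie outside it. Values that are not measured on both arrays are not drawn.

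The members also varied little among themselves. Over the 78 genes detected on every array the SD of the difference was 0.06 after AR7, 0.09 after CA39 and 0.07 after CA77. Over all 20594 genes detected on every array it was 0.29, 0.45 and 0.29. Part of this gap went with brightness, as the spread of all genes was also narrower at the bright end. In the brightest 3% of genes, where 71 members and 547 other genes lay, the SD was 0.05, 0.07 and 0.06 for members and 0.08, 0.17 and 0.09 for the others. What set the remaining gap was not tested.

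With AR7, 0 of 80 members were past 1.5-fold, where 4.71% of all genes were. With CA39, 0 members were past it, against 10.9% of all genes. With CA77, 1 member was past it, Rpl3l, against 6.47% of all genes. In the brightest 10% of genes, members left out, the shares were 0.858%, 2.22% and 0.505%, so few bright genes of any kind were called. Past the spot tolerance there were 2 members after AR7, 5 after CA39 and 2 after CA77. These counts depended on the scaling, with 19 after AR7 without quantile normalization and 14 after CA39 with the processed signal scaled to the 75th percentile. The same threshold was passed by 32.5%, 48.1% and 44.9% of all genes, and by 16.3%, 31.4% and 19.9% of the brightest 10% of other genes.

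**Figure D2:**
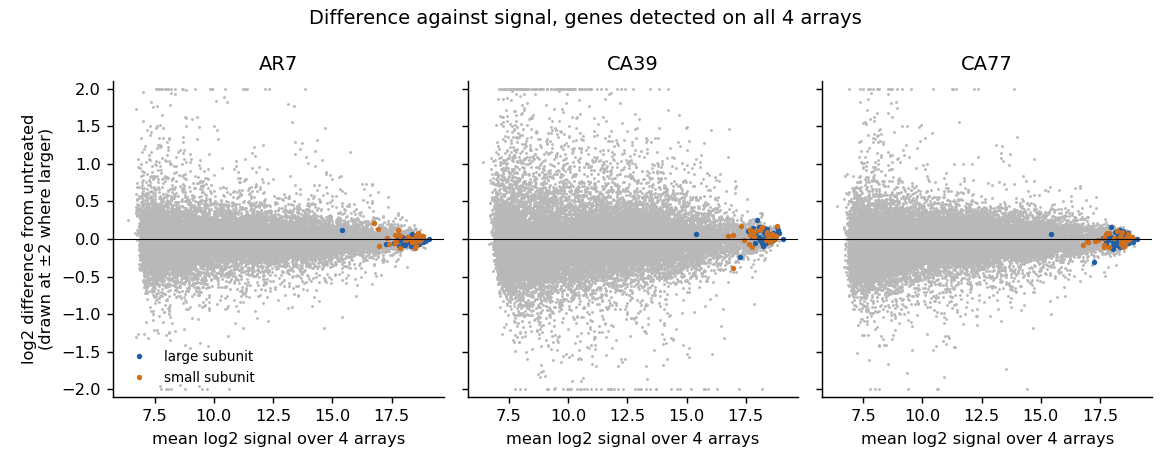
Grey points are genes detected on all 4 arrays, placed by mean normalized log2 signal (horizontal axis) and log2 difference from the untreated array (vertical axis, drawn at 2 where larger) for each compound. Blue and orange points are large and small subunit genes. They gather at the bright end, where the spread of all genes narrows, and their SD was 0.06, 0.09 and 0.07.

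The sign of the small group shift with CA39 depended on the scaling. In the brightest 3% of genes the median of the members was 0.04 and that of the other genes 0.01 under quantile normalization. With the scanner software's processed signal scaled to the 75th percentile of each array the same medians were -0.09 and -0.10. Without quantile normalization, on arrays centred on the median, they were -0.07 and -0.08. With AR7 the members' median went from -0.0050 to -0.12 without quantile normalization, and that of the other bright genes from 0 to -0.10. Over 8 ways of processing, members minus other bright genes ran from -0.02 to -0.0050 after AR7, from 0.0069 to 0.03 after CA39 and from -0.01 to 0.02 after CA77.

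**Figure D3:**
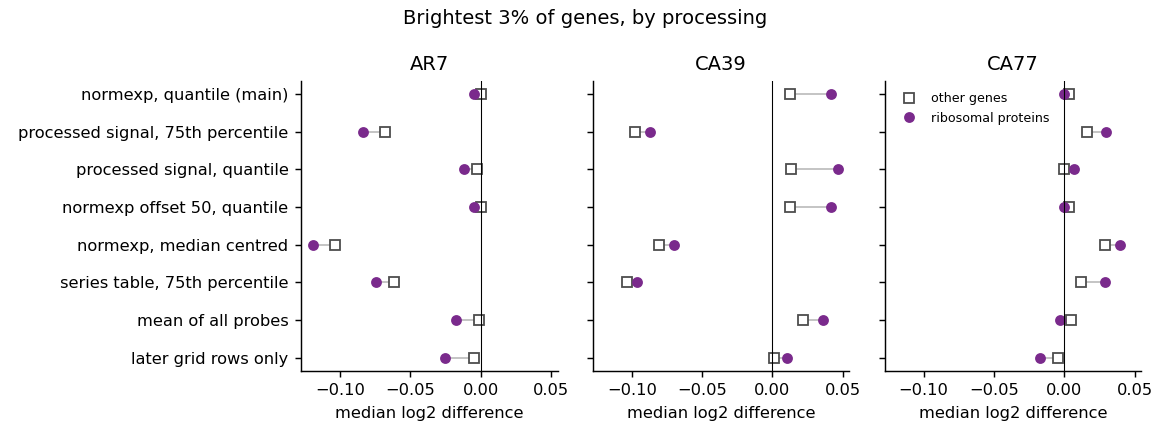
For the brightest 3% of genes, filled circles give the median log2 difference (horizontal axis) of the ribosomal protein genes and open squares that of the other genes, under 8 ways of processing (rows) and for each compound (panels). With CA39 both medians lie above 0 under quantile normalization and below 0 with percentile scaling, and each pair stays close together.

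Among the large subunit genes, the stalk proteins Rplp0, Rplp1 and Rplp2 form the flexible arm that recruits elongation factors. Rplp0 had a log2 signal of 18.91 untreated, 18.88 after AR7, 18.98 after CA39 and 18.87 after CA77. Rplp1 had 18.45, 18.42, 18.49 and 18.55 in the same order. Rplp2 had 18.61, 18.65, 18.68 and 18.69. All 9 differences of the brightest stalk probes were within the spot tolerance, the widest being 0.10 for Rplp1 with CA77.

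Rpl5 and Rpl11 enter the large subunit with the 5S RNA and, when ribosome assembly is disturbed, bind the p53 regulator Mdm2. Rpl5 had a log2 signal of 17.82 untreated, 17.72 after AR7, 17.85 after CA39 and 17.85 after CA77. Rpl11 had 18.47, 18.48, 18.53 and 18.52. Neither left the tolerance with any compound under the main processing. Over 7 other settings the difference of Rpl5 with AR7 ran from -0.20, past the tolerance, to -0.0088.

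Rpl10, which joins the large subunit late in its assembly, was at 18.79 untreated, 18.80 after AR7, 18.95 after CA39 and 18.78 after CA77, a difference of 0.15 with CA39 that lies inside the tolerance. Its dimmer probes gave 0.07 and -0.02, and over 7 other settings the difference ran from -0.10 to 0.15. Rpl21 was at 17.85 untreated, 17.87 after AR7, 18.10 after CA39 and 18.00 after CA77, the highest large subunit difference with CA39 at 0.25. Its 2 dimmer probes gave -0.03 and 0.13 with CA39, so the probe chosen for brightness alone passed the tolerance. Over 7 other settings the difference with CA39 ran from -0.03 to 0.25, and it was inside the tolerance with the series table, the processed signal scaled to the 75th percentile, the mean of probes and the later grid rows.

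Rpl7a had the lowest difference in the large subunit with CA39 and with CA77. Its brightest probe was at 17.41 untreated, 17.34 after AR7, 17.18 after CA39 and 17.11 after CA77, differences of -0.07, -0.24 and -0.31. The other probes of the gene gave 0.29 and -0.05 with CA39, and 0.04 and -0.01 with CA77. With the mean of its probes the gene was at 0.0021 with CA39 and at -0.09 with CA77. The brightest probe was in row 381 of the 384 rows of the spot grid. The dimmest probe of Rplp0 was in the same row and gave -0.21, -0.27 and -0.33, where the other Rplp0 probes stayed within tolerance. The 146 probes of log2 signal 12 and over in the last 6 rows, of all genes, had medians of -0.06, -0.02 and -0.10. The part of the grid row in these differences was not tested.

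Among the small subunit genes, Rpsa, also known as the laminin receptor precursor, was at 18.40 untreated, 18.36 after AR7, 18.40 after CA39 and 18.37 after CA77. Rps6, the protein that S6 kinases phosphorylate, was at 18.37, 18.37, 18.46 and 18.46. The brightest probes of both stayed within tolerance with all compounds, and 1 dimmer probe of each passed it with CA39, at 0.17 for Rpsa and 0.18 for Rps6.

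Rps3, which lines the mRNA entry channel, had the highest small subunit difference with AR7. It was at 16.72 untreated, 16.93 after AR7, 16.76 after CA39 and 16.64 after CA77, differences of 0.21, 0.04 and -0.08. Its second probe, at a lower signal, gave -0.09 with AR7. Over 6 other settings the difference with AR7 ran from 0.06 to 0.21, and it was inside the tolerance with the processed signal, without quantile normalization and with the mean of probes. The higher value with AR7 was thus given by 1 of its 2 probes.

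Rps24 and Rps15 were the small subunit genes above tolerance with CA39. Rps24 was at 18.78 untreated, 18.81 after AR7, 18.95 after CA39 and 18.80 after CA77, a difference of 0.18 with CA39. Its other probes, designed to other transcript variants, gave 0.12 and 0.15. Rps15 was at 17.26, 17.27, 17.43 and 17.23, a difference of 0.17 with CA39, and its second probe gave 0.35. All probes of both genes were higher on the CA39 array under quantile normalization. Under the other settings the difference of Rps24 with CA39 ran from -0.08 to 0.18 and that of Rps15 from 0.06 to 0.26.

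Rps27l was the member furthest below the untreated array with CA39. It is a relative of Rps27 that p53 is known to induce. Its signal was 17.11 untreated, 17.01 after AR7, 16.72 after CA39 and 17.06 after CA77, differences of -0.10, -0.38 and -0.04. The CA39 array was thus the low one, and the other 3 arrays lay within 0.10 of each other. Over 7 other settings its difference with CA39 ran from -0.51 to -0.36. Rps27 was at 18.08, 18.06, 18.20 and 18.09, with a difference of 0.12 with CA39. Each of these values rests on 1 array and, for Rps27l, on 1 probe.

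Rpl39l, Rpl3l and Rpl10l are paralogs best known from single tissues. Rpl39l, known from the male germ line, was detected on all arrays at 15.35 untreated, 15.47 after AR7, 15.42 after CA39 and 15.42 after CA77. Rpl39 was at 17.94, 17.95, 17.88 and 17.84. Under the main processing the brightest probes of both stayed within the spot tolerance, and the dimmest probe of Rpl39 was at -0.20 with CA39. Over 7 other settings the difference of Rpl39 with CA39 ran from -0.19, past the tolerance, to -0.06.

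Rpl3l, known from heart and skeletal muscle, was close to background. Its signal was 6.69 untreated, 7.24 with AR7, 6.36 with CA39 (not well above background) and 7.28 with CA77. The differences were 0.56 with AR7 and 0.60 with CA77, and for CA39 no fold was given. Over 6 other settings the value with AR7 ran from 0.40 to 0.92 and that with CA77 from 0.43 to 0.81. Its 1 probe was in row 84, in the first part of the grid. Probes of similar signal, between 6.5 and 7.5 and detected on all arrays, were past 1.5-fold higher with AR7 in 5.75% of 1148 cases in that part and in 1.52% of 1848 cases in the other rows. With CA77 these shares were 4.09% and 0.920%. The part of grid position in the Rpl3l values was not tested. Rpl3 itself was at 18.09, 18.00, 18.10 and 18.05.

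Rpl10l, the X-linked Rpl10's retrogene copy used in testis, was barely measured. Its brighter probe was well above background only on the untreated array, at 6.02, with 5.99, 5.92 and 6.04 on the AR7, CA39 and CA77 arrays. No fold was given for it.

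**Figure D4:**
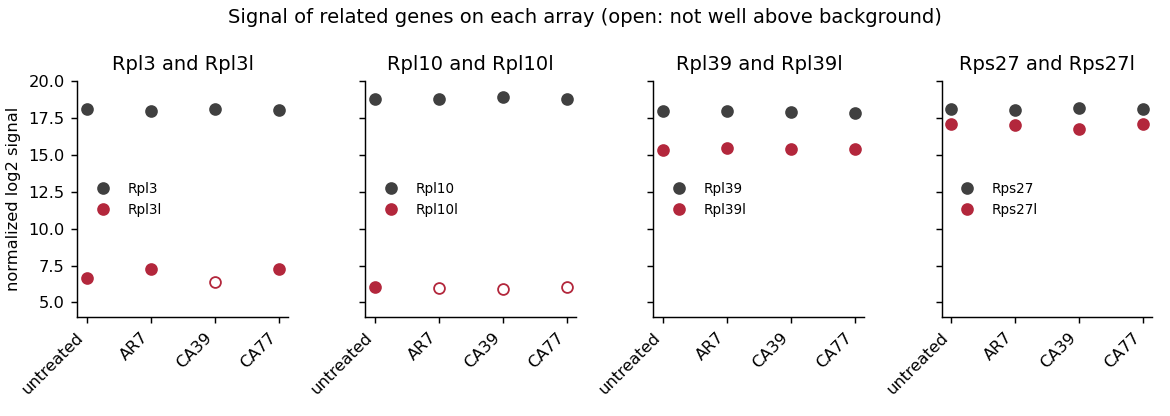
Normalized log2 signal (vertical axis) of 4 genes in grey and their paralogs in red on each of the 4 arrays (horizontal axis). Open circles were not well above background. Rps27l is lowest on the CA39 array at 16.72, and Rpl3l and Rpl10l lie near background on all arrays.

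Probes of the same gene did not always give the same difference. Among 50 members with 2 or more probes detected on every array, the probes differed by more than the tolerance in 14 genes after AR7, 18 after CA39 and 11 after CA77. Dim probes were past the tolerance more often than bright ones. Of 76 member probes at a log2 signal of 18 to 20, 1.32% were past the tolerance after AR7, 3.95% after CA39 and 1.32% after CA77. Other probes of that signal gave 1.40%, 9.44% and 3.85%. Of 14 member probes under 14, 42.9%, 50% and 35.7% were, where other probes of that signal gave 41.3%, 60.9% and 48.8%.

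Rps27a, which is made as a fusion with ubiquitin, showed the widest case. Its brightest probe was at 18.64 untreated, 18.66 after AR7, 18.69 after CA39 and 18.70 after CA77. Its dimmest probe, carrying another transcript accession, was at 8.69, 8.46, 7.86 and 8.47, a difference of -0.83 with CA39.

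Rpl22, which also binds RNA outside the ribosome, had differences of 0.05, 0.14 and -0.01 from its brightest probe. The second probe, on another transcript accession, gave -0.35 after AR7, 0.21 after CA39 and -0.46 after CA77. Rpl15 gave -0.01 with CA39 from its brightest and 0.44 from its second probe. Rpl17 had 7 probes, and with AR7 they ran from -0.12 to 0.32 while the brightest gave -0.04.

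Rpl23 had a probe printed 10 times, which shows the error within an array. Its spots had a mean log2 signal of 14.64 ± 0.17 (SD over 10 spots) untreated, 14.69 ± 0.14 after AR7, 14.99 ± 0.09 after CA39 and 14.74 ± 0.11 after CA77. On the CA39 array the lowest spot, 14.86, was above the highest untreated spot, 14.82. Spots of 1 array are not separate cultures. The brighter probes of Rpl23 gave 0.05 and -0.05 with CA39, so the difference was seen by the dimmest probe alone.

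**Figure D5:**
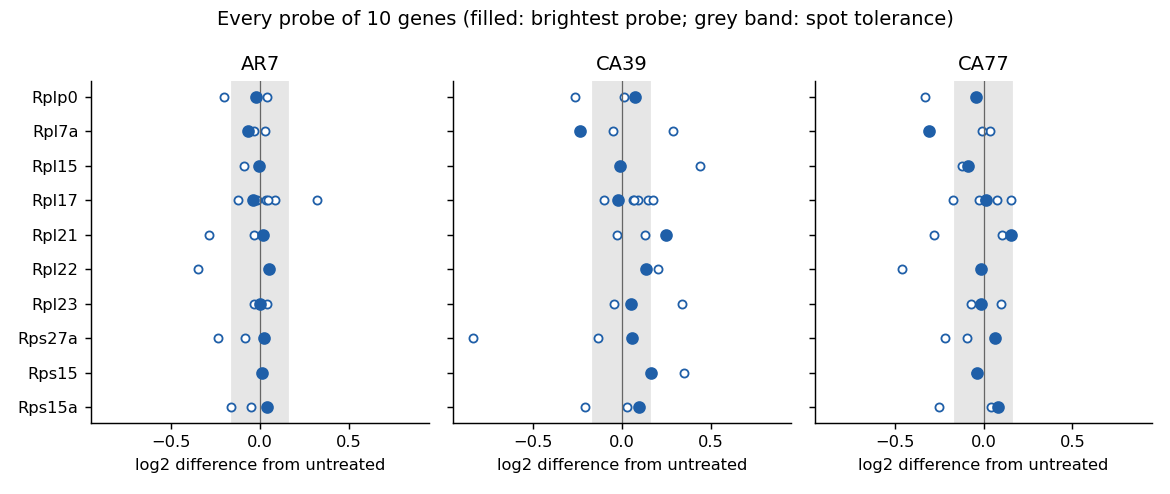
Every detected probe of 10 ribosomal protein genes (rows), placed by its log2 difference from the untreated array (horizontal axis) for each compound (panels). Filled circles are the brightest probe of a gene, open circles the others, and the grey band is the spot tolerance. Filled circles lie mostly in the band, while single open circles reach -0.83 for Rps27a and 0.44 for Rpl15 with CA39.

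The compounds were set against each other in 3 pairs at the same dose and time, with 1 array each and so with no test or interval. CA39 minus AR7 had a median of 0.04 over 79 members, with 5 members higher and 5 lower past the tolerance, where 58.6% of all genes were past it. CA77 minus AR7 had a median of 0.0070, with 0 higher and 2 lower, against 35% of all genes. CA77 minus CA39 had a median of -0.05, with 3 higher and 3 lower, against 51.7% of all genes. No member was past 1.5-fold in any pair, where 14.2%, 4.73% and 13.2% of all genes were. Shares among other bright genes were not taken for these pairs. Against the untreated array bright genes passed both thresholds less often than all genes. The counts for the pairs thus do not set the members apart from other bright genes. The signs of all 3 medians depended on the processing. Over 7 other settings the median of CA39 minus AR7 ran from -0.02 to 0.05, that of CA77 minus AR7 from -0.0053 to 0.16 and that of CA77 minus CA39 from -0.05 to 0.11.

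Other genes of protein synthesis were described by lists. The mitochondrial ribosomal proteins build the separate ribosome of that organelle, and 77 of 78 were detected on all arrays. Their medians were -0.05 after AR7, -0.10 after CA39 and -0.04 after CA77, beside -0.01, -0.04 and -0.02 for all genes detected on every array. With CA39, 7 were higher and 23 lower past the tolerance, where 48.1% of all genes were past it in either direction. Of the 27894 genes compared with CA39, 5832 were higher and 7586 lower past it, a split that applies to the lists below too. Past 1.5-fold there were 0 of the list with any compound. Over 8 ways of processing the median with CA39 ran from -0.19 to -0.09.

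Elongation factors and other mRNAs known to carry a TOP tract numbered 21, all detected, with Vim among them. Their medians were 0.00096, 0.15 and 0.06. With CA39, 18 of 21 were above 0, and 7 were higher and 1 lower past the tolerance, again beside 48.1% of all genes. Eef2, which moves the ribosome along the mRNA, was 0.15 higher with CA39, inside the tolerance. Eif4b, an initiation factor, was 0.37 higher, the most in the list, and Eif4a2, an RNA helicase of initiation, was the one lower past the tolerance, at -0.27. The CA39 median ran down to 0.0016 with the processed signal scaled to the 75th percentile. The 22 initiation factors had medians of 0.02, 0.0055 and -0.0067, and 0 of either list were past 1.5-fold.

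Ribosome assembly factors and RNA polymerase I subunits, which make and fold the ribosomal RNA, numbered 45. Their medians were -0.00055, -0.09 and 0.02, and with CA39 2 were higher and 16 lower past the tolerance, beside the same 48.1% of all genes. The median with CA39 ran from -0.18 to -0.08 over the same 8 ways of processing. Rrp1b, a nucleolar assembly factor, was the only one past 1.5-fold, at -0.59 with CA39, a threshold that 10.9% of all genes passed.

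Of 18 growth control genes, which hold the mTORC1 pathway, S6 kinases and Myc, 17 were detected on all arrays and 0 were past 1.5-fold. Their medians were 0.0066, -0.05 and -0.05, and over 8 ways of processing the one with CA39 ran from -0.25 to -0.04. Past the tolerance, 3 were higher and 2 lower with AR7, 1 higher and 7 lower with CA39, and 2 higher and 6 lower with CA77. The shares of all genes past it were 32.5%, 48.1% and 44.9%. Those genes split into 4165 higher and 4887 lower with AR7, and 5457 higher and 7173 lower with CA77. The widest difference of the list was -0.41 with AR7, for Tsc2 at a signal of 7.98 untreated, and 0.41 with CA77, for Tsc1. Tsc1 was at 0.0066 with AR7, and Tsc2 at -0.24 with CA77. Larp1 was at 15.37 untreated, 15.51 after AR7, 15.52 after CA39 and 15.68 after CA77. Its differences with AR7 and CA39, both 0.14, were inside the tolerance and that with CA77, 0.30, was past it. Eif4ebp1, the mTORC1 target that holds back cap-dependent initiation, was at 16.00, 16.21, 16.54 and 16.02, highest with CA39. Myc, a known activator of ribosomal protein genes, was at 14.64, 14.68, 14.28 and 14.74, lowest with CA39.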

How the data were processed

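Total RNA was labelled with Cy3 and hybridised to 4 one-colour Agilent arrays. The authors deposited scanner output of Feature Extraction 10.7.3.1 as spot intensity on a linear scale, and a series table that was found to hold its background-subtracted intensity. The submitters' processing notes name oligo and RMA, and RMA values were not used here. Spot medians were corrected with normexp in limma 3.58.1 (R 4.3.3; offset 0) over all spots, controls were dropped, arrays were quantile normalized and log2 values taken. Flagged spots were left out and spots of a probe averaged. The plan named mean spot intensity, and the median was used. Normalization by quantiles fixes values by rank.

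A gene was read from its brightest mRNA probe, and probes were named through RefSeq accessions of GRCm38.p6. A value not well above background was set at the 1st percentile of detected signal. The spot tolerance was the median SD over repeated spots, scaled to a difference. Scripts were tested on simulated data. The members and lists were chosen with earlier results of these data known. Members were named when past 1.5-fold, among the 3 highest or 3 lowest of their subunit, outside tolerance one way with all compounds or with probes that disagreed, together with the stalk genes, Rpsa and the paralog pairs; Rpl41, Rpl11 and the others were named for their role or position. Some items are not reported here. Alternatives covered the scaling, background, source table, probe choice, grid rows, filters, thresholds and membership.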

Additional observations from a re-analysis of the deposited data

Results flagged for a closer look

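Rpl10l has a second, dimmer probe that the comparisons above did not use. It was well above background on the CA77 array alone, where its log2 signal was 6.95, against 4.45 untreated, 4.86 with AR7 and 4.45 with CA39. Set against the 1st percentile of detected signal on the untreated array, CA77 was at least 1.07 higher on the log2 scale, and it was noticed because this signal lies above the untreated level. The brighter probe of the gene gave 6.04 with CA77 and 6.02 untreated, so the 2 probes differ. The probe was in row 10 of the spot grid, and the part of that position was not tested.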

How the results depend on the processing

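With 1 array per group no spread between cultures is known, and no paired analysis was possible because each group had 1 array. The medians of the large and the small subunit ran over 10 alternatives each from -0.12 to -0.0070 and from -0.11 to -0.0014 with AR7, from -0.10 to 0.04 and from -0.08 to 0.05 with CA39, and from -0.02 to 0.03 and from -0.02 to 0.04 with CA77. These moves are larger than the medians themselves, and the sign with CA39 followed the scaling. Of the named members' values, 931 moved by less than the tolerance, and 40 moved further. With AR7, the members past 1.5-fold went from 0 to 1 (Rpl3l) with the series table, without quantile normalization, with the processed signal under percentile scaling or quantiles and at the lower of 2 other fold thresholds. With CA39, 1 was past that lower threshold. With CA77, the count of 1 became 0 with an offset of 50, among genes detected on all arrays, in the later grid rows and at 2-fold. It became 2 with the processed signal under either scaling, where the second Rpl10l probe was the brighter one, with lower bounds of 2.19 and 2.60. Past the spot tolerance, the 2 members with AR7 became 7 with the series table, 6 with the processed signal under percentile scaling, 19 without quantile normalization, 1 with the mean of probes and 11 of 164 over every probe. The 5 with CA39 became 12, 14 and 22 with the series table, processed signal and every probe, and 8 with a tolerance of 0.15 from 46 bright probes. The 2 with CA77 became 12 over every probe. CA77 minus CA39 went to 0.11 with percentile scaling of the processed signal. The lowest-signal floor, the tolerance from bright probes, the count over every probe and the centring on other bright genes were chosen after seeing the data. The cause of these shifts was not tested.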
